A study of Mus musculus with 11 samples.

Results

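The 10 genes described here belong to the Wnt signalling pathway and were measured in mouse skin: the ligands Wnt10a, Wnt10b and Wnt5a, the secreted antagonists Sfrp1, Sfrp2, Dkk3 and Wif1, the transducer Ctnnb1, the transcription factor Lef1 and the feedback regulator Axin2. They were chosen by name, and every probe set annotated to one of them alone was taken, which gave 22 of the 45101 probe sets on the array. The brightest probe set of a gene over all arrays stood for the gene. Of the 18194 genes measured in this way, 13710 passed the filter on dim probe sets, and 9 of the 10 Wnt pathway genes were among them. Wnt10b did not pass.

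The skin came from mice dosed with ABBV-075 (mivebresib), a small molecule that blocks the acetyl-lysine binding pockets of the BET bromodomain proteins, or with vehicle. There were 4 arrays of skin taken 6 h after 1 mg/kg of ABBV-075, 4 arrays of skin taken 24 h after the same dose, and 3 arrays of vehicle skin, 1 array per skin sample. The series asked which genes of skin could serve as markers of the response to the compound. The sources used here give no strain, sex, age, skin site, dosing route or collection time of the vehicle skin, and do not say whether a mouse gave skin at both times.

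Wnt proteins are secreted, lipid-modified ligands that bind Frizzled receptors and the co-receptors Lrp5 and Lrp6. Binding stops the destruction complex, of which Axin proteins are scaffolds, from marking beta-catenin for degradation, and beta-catenin then enters the nucleus and acts with Tcf and Lef factors on target genes. In skin, this pathway is known for the formation of hair follicles and for the start of hair growth, and it also acts in the epidermis and in dermal fibroblasts.

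All levels are log2(intensity + 16) of quantile-normalized intensities, on which 4.00 is the floor, and all differences are on the same scale, on which the changes of dim genes come out too small. Levels are given in the order of the labels' replicate numbers, 1, 2, 3 and 5 at 6 h, 1, 2, 3 and 4 at 24 h, and 1, 3 and 4 for vehicle. A level belongs to its probe set and was not set against that of another probe set. The trimmed mean of the deposited intensities ran between 82.8 and 244 over the 11 arrays. The 5' to 3' ratio of actin, which is low where RNA is shortened, moved with the groups: it ran between 0.0725 and 0.425 at 6 h, between 0.198 and 0.529 at 24 h, and between 0.484 and 0.593 in vehicle skin, so that every array at 6 h lay below every vehicle array. It was under 0.3 in 6 h replicate 3 (0.284), 6 h replicate 5 (0.0725) and 24 h replicate 2 (0.198). Skin markers were high: Col1a1, a collagen chain, lay between 11.38 and 12.92, and Krt14, a basal keratin, between 11.39 and 13.02. 24 h replicate 4 stood apart from the other arrays, with the highest basal keratinocyte list mean (11.67) and the lowest dermal fibroblast list mean (9.43) of the 11.

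None of the 9 Wnt pathway genes tested was called changed by ABBV-075. With limma over all genes and Benjamini-Hochberg adjustment, 0 of 9 had an adjusted p under 0.05 at 6 h, at 24 h, or between the times, and the same was true of all genes (0.00% of 13710 in each comparison). The comparisons at 6 h and at 24 h share the 3 vehicle arrays. With limma's array weights, Wnt5a and Sfrp2 were called lower at 6 h, and from the intensities as deposited Sfrp2 was. Many other genes were called in these settings too. In either direction at 6 h, they were 2498 of the 13710 with array weights and 859 genes from the intensities as deposited. At an unadjusted p under 0.05, 2 of the 9 lay below vehicle at 6 h, Wnt5a and Sfrp2, against 16.1% of all genes in either direction and 8.05% lower. At 24 h, 0 of the 9 passed that bound, against 7.63% of all genes. Between 24 h and 6 h, 1 of the 9 did, Wnt5a, higher at 24 h, against 9.27% of all genes in either direction and 3.76% higher. The median difference of the 9 genes was -0.05 at 6 h and 0.03 at 24 h, beside 0.0037 and -0.02 over all genes. In the intensities as deposited, with no normalization between arrays, the median over all genes was itself -0.68 at 6 h and -0.62 at 24 h. At 6 h, 3 of the 9 lay above vehicle and 6 below, against 50.4% and 49.6% of all genes, at 24 h 6 lay above and 3 below, against 47.6% and 52.4%, and between the times 6 were higher at 24 h and 3 lower, against 47.4% and 52.6%. In all 3 comparisons, the groups overlapped for each of the 9 main probe sets. Of all genes, 18.5% had no overlap at 6 h (9.77% higher, 8.77% lower), 11.1% at 24 h (5.09% higher, 6.02% lower) and 5.46% between the times (1.92% higher, 3.54% lower).

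**Figure D1:**
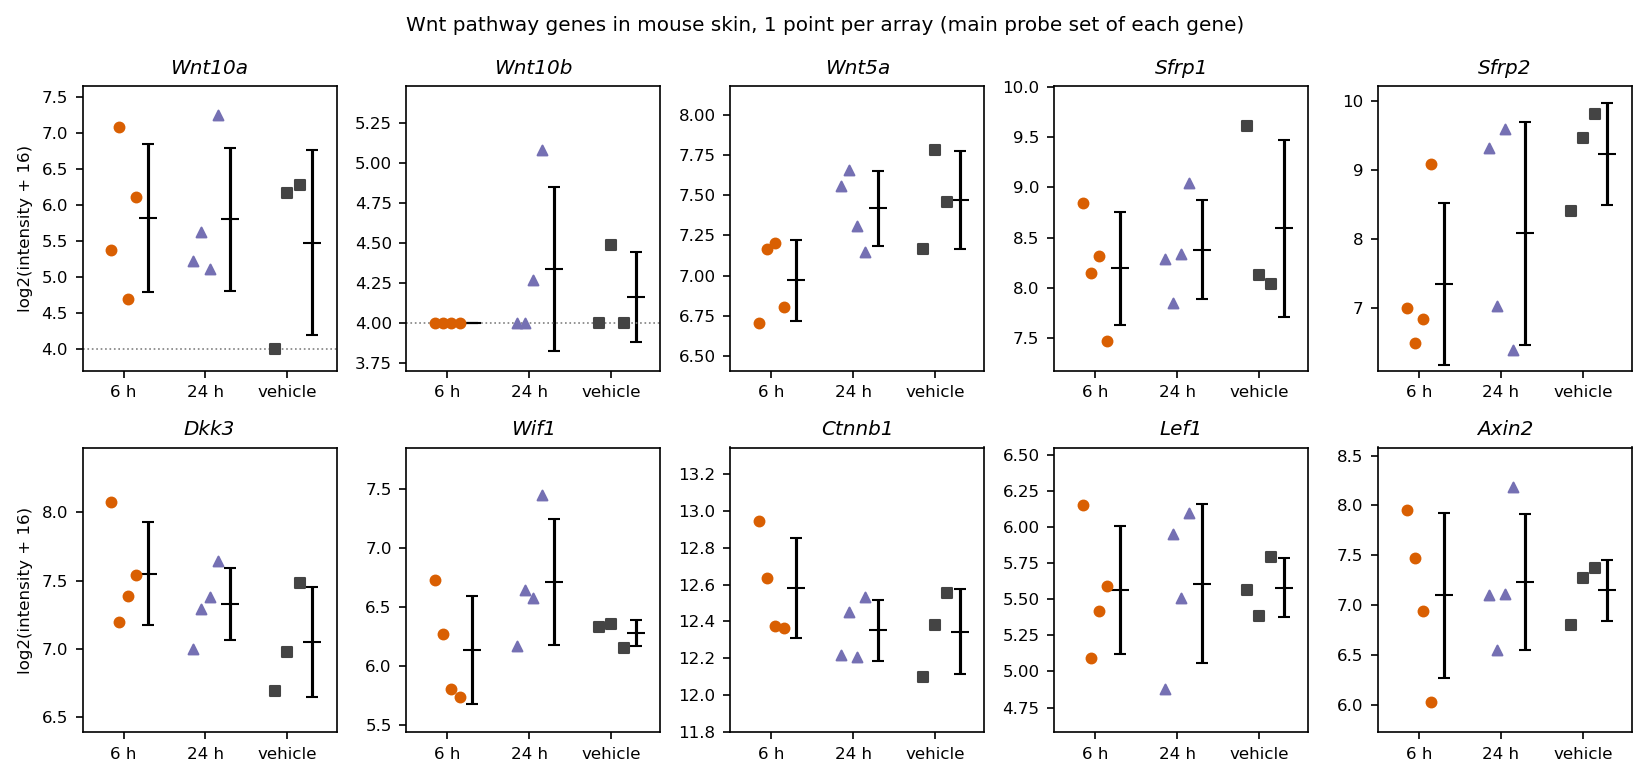
Level of the main probe set of each Wnt pathway gene, log2(intensity + 16), in 4 arrays at 6 h (circles), 4 at 24 h (triangles) and 3 vehicle arrays (squares), with the group mean and SD as a black bar beside the points. The dotted line is the floor of 4.00, on which most Wnt10b points lie, and Sfrp2 shows the widest gap between the 6 h mean (7.36) and the vehicle mean (9.23).

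Among the ligands, Wnt10a and Wnt10b are known for acting through beta-catenin in hair follicles and epidermis, and loss of WNT10A in people causes ectodermal dysplasia. Wnt10a lay at 5.38, 7.09, 4.69 and 6.12 at 6 h, at 5.22, 5.62, 5.11 and 7.26 at 24 h, and at 4.00, 6.17 and 6.28 in vehicle skin. Each group spread over more than 2 units and the 3 groups covered much the same range. The difference from vehicle was 0.34 ± 0.71 at 6 h (SE, adjusted p = 0.84) and 0.32 ± 0.71 at 24 h (adjusted p = 0.92). One vehicle array, replicate 1, lay on the floor, and without it the differences were -0.40 and -0.42.

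Wnt10b was on the floor in 8 of the 11 arrays. The other levels were 4.27 and 5.08 at 24 h, in replicates 3 and 4, and 4.49 in vehicle replicate 3. All 4 arrays at 6 h lay on the floor. No test was made.

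Both of these genes sit beside another Wnt gene in the mouse genome, Wnt10a beside Wnt6 on chromosome 1 and Wnt10b beside Wnt1 on chromosome 15. Wnt6, another ligand found in epidermis, lay at 6.32, 6.68, 6.91 and 7.02 at 6 h, at 6.41, 6.75, 6.70 and 6.61 at 24 h, and at 6.31, 6.09 and 5.96 in vehicle skin. Every array of dosed skin lay above every vehicle array. The difference was 0.61 ± 0.19 at 6 h and 0.50 ± 0.19 at 24 h, with adjusted p = 0.20 and 0.59, and -0.03 at 6 h in the intensities as deposited. That last value lay above the median over all genes in the deposited intensities, -0.68. Wnt1 did not pass the filter and lay between 4.00 and 5.27.

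Wnt5a, a ligand best known for signalling that does not pass through beta-catenin, is made mainly by dermal cells in skin. It lay at 6.71, 7.17, 7.20 and 6.81 at 6 h, at 7.56, 7.66, 7.31 and 7.15 at 24 h, and at 7.17, 7.78 and 7.46 in vehicle skin. The 4 arrays at 6 h were low, the highest of them just above the lowest vehicle array, and the 24 h and vehicle arrays shared 1 range. At 6 h the difference from vehicle was -0.50 ± 0.21 (95% interval -0.96 to -0.04, unadjusted p = 0.037, adjusted p = 0.29), and with array weights -0.59 (adjusted p = 0.028). At 24 h it was -0.05 ± 0.21 (adjusted p = 0.96). Between the times, Wnt5a was higher at 24 h by 0.45 ± 0.19 (unadjusted p = 0.042, adjusted p = 0.52). The actin ratio was lower in every array at 6 h than in every vehicle array, and with this ratio as a covariate the difference at 6 h was -0.49 (adjusted p = 0.50). The mean of the 14 dermal fibroblast markers was also lower in every array at 6 h (10.55 to 11.12) than in every vehicle array (11.44 to 11.58), and over the 11 arrays its correlation with Wnt5a was r = 0.49 (permutation p = 0.13, adjusted p = 0.32) and rho = 0.64 (permutation p = 0.041, adjusted p = 0.23), with r = 0.53 without the 2 arrays farthest from the median list mean and r = 0.45 within groups. In whole skin, fewer cells of a type and less RNA per cell cannot be told apart, and the part of fibroblast content in the Wnt5a difference was not tested.

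Wnt5a had 3 further probe sets, and the 4 disagreed in part. At 6 h all 4 lay below vehicle, by differences of -0.50, -0.18, -0.35 and -0.81, the last for 1437673_at with levels of 5.40, 4.66, 5.07 and 5.41 at 6 h, all below the 5.97, 5.78 and 6.10 of vehicle skin (adjusted p = 0.18). At 24 h the probe sets 1448818_at and 1456976_at were higher than vehicle by 0.37 and 0.34 with no overlap, while 1437673_at was lower by a difference of -0.51, also with no overlap, so no direction can be given for Wnt5a at 24 h. Between the times all 4 were higher at 24 h, by 0.31 to 0.68, and 2 of them without overlap. For 1448818_at the levels were 7.09, 7.13, 6.54 and 6.53 at 24 h, against 6.23, 6.50, 6.18 and 6.19 at 6 h (adjusted p = 0.44).

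**Figure D2:**
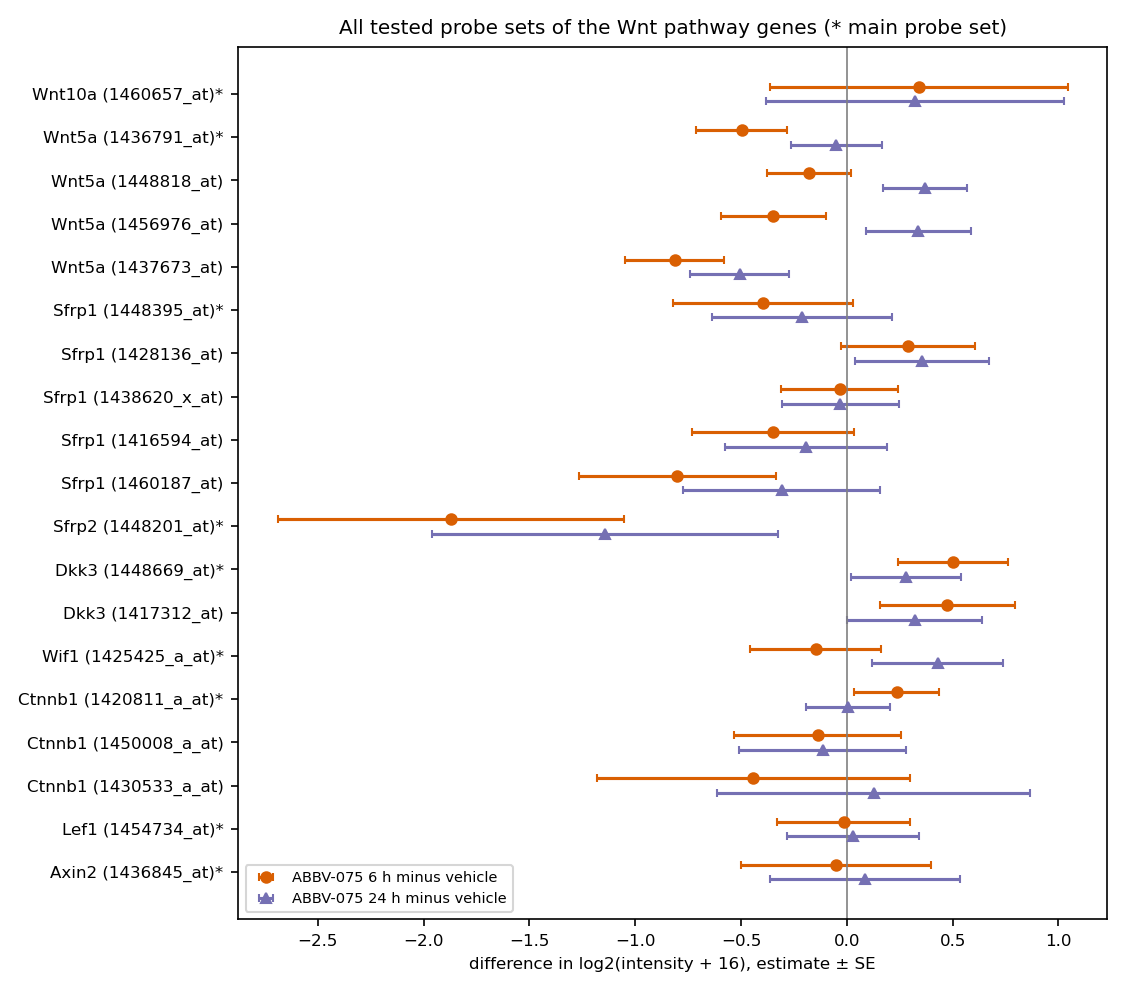
Difference from vehicle in log2(intensity + 16), estimate ± SE, at 6 h (circles) and 24 h (triangles) for each of the 19 Wnt pathway probe sets that passed the filter, with an asterisk on the main probe set of a gene. The 4 Wnt5a probe sets all lie left of 0 at 6 h and on both sides of 0 at 24 h, and Sfrp2 lies farthest left.

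The antagonists act outside the cell: Sfrp1, Sfrp2 and Wif1 bind Wnt proteins, and Dkk3 is a divergent member of the Dickkopf family, whose other members block Lrp5 and Lrp6. Sfrp2 is also a known marker of dermal fibroblasts. It showed the largest difference among the 9 genes, and its levels formed a high and a low set that crossed the groups. A promoter window of Sfrp2, shown because of this difference, is 250 bases before to 50 after a RefSeq start (GRCm38.p6, chr3:83766071-83766370, + strand), in lower case with no part marked, since neither motif searched for on both strands, CTTTGAT or CTTTG, lies in it. The RefSeq gene begins upstream of this window, at 83765750, and no window was searched there.
Sfrp2: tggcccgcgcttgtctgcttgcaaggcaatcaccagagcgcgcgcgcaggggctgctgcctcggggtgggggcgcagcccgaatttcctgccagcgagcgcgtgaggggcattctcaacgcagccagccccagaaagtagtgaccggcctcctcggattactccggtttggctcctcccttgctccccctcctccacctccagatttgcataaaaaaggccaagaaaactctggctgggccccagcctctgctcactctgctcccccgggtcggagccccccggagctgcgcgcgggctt

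Sfrp2 lay at 7.002, 6.50, 6.84 and 9.08 at 6 h, at 9.32, 7.03, 9.59 and 6.39 at 24 h, and at 8.40, 9.47 and 9.81 in vehicle skin. The 3 vehicle arrays were all high, 3 of the 4 arrays at 6 h were low with replicate 5 high, and at 24 h replicates 1 and 3 were high and replicates 2 and 4 low. No array lay between 7.03 and 8.40. The difference at 6 h was -1.87 ± 0.83, a fold of 0.27 (95% interval -3.69 to -0.05 on the log2 scale, unadjusted p = 0.045, adjusted p = 0.30). At 24 h it was -1.14 ± 0.83 (adjusted p = 0.74).

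The call on Sfrp2 turned on the processing. From the intensities as deposited, with no normalization between arrays, the difference at 6 h was -2.58 with an adjusted p of 0.036, and with limma's array weights it was -2.64 with an adjusted p of 0.0088. It was -2.45 without 6 h replicate 5, the high array, which also had the lowest actin ratio. With the actin ratio as a covariate it was -1.82 (adjusted p = 0.53), and without the 3 arrays of ratio under 0.3 it was -2.48 (adjusted p = 0.27). It was -1.58 without vehicle replicate 4. At 24 h, without replicate 4, it was -0.58.

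The fibroblast list moved with Sfrp2 in part. None of its 14 genes was on the floor in any array. Their mean was 10.55, 10.62, 11.12 and 10.66 at 6 h, 11.41, 10.98, 11.23 and 9.43 at 24 h, and 11.58, 11.44 and 11.46 in vehicle skin, so that each vehicle array lay above each dosed array. The 24 h arrays with high Sfrp2 had the higher list means, and the array with the lowest list mean, 24 h replicate 4, had the lowest Sfrp2, but 6 h replicate 5 had high Sfrp2 at a list mean of 10.66. Over the 11 arrays the correlation of Sfrp2 with the list mean was r = 0.67 (permutation p = 0.014, adjusted p = 0.15). By rank it was rho = 0.74 (permutation p = 0.013, adjusted p = 0.18). Because Sfrp2 lies in separate high and low sets, these values cannot show a graded relation. The part of fibroblast content in the Sfrp2 difference was not tested.

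**Figure D3:**
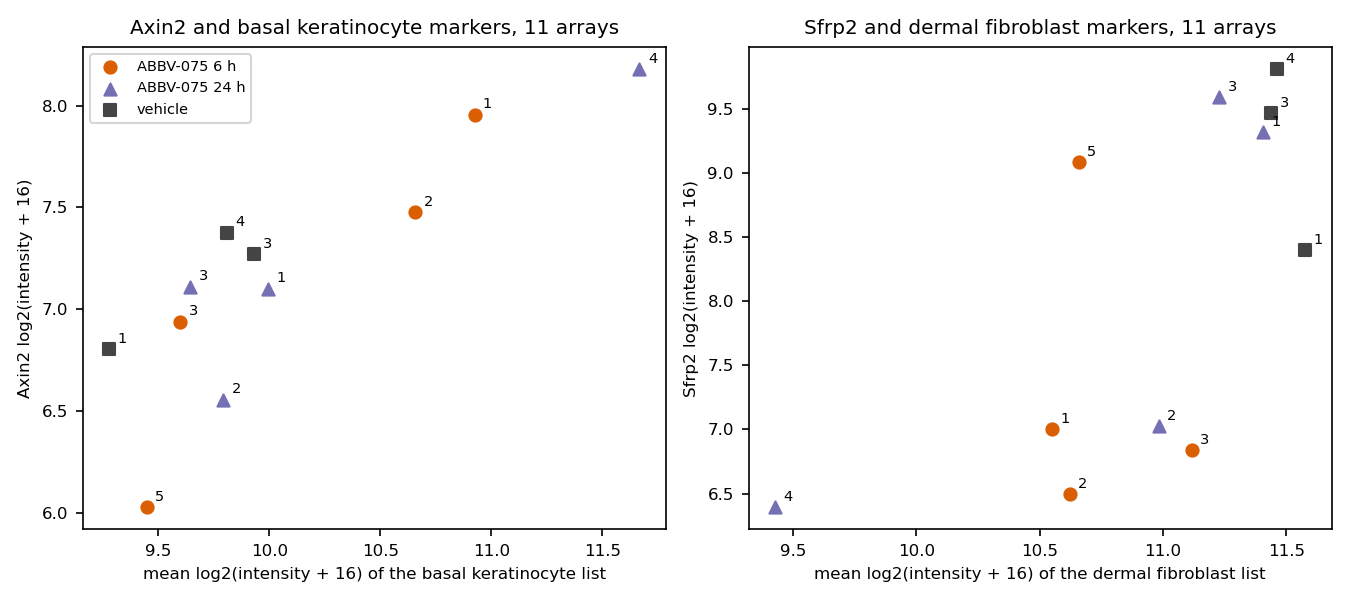
Left, Axin2 against the mean of the basal keratinocyte list, and right, Sfrp2 against the mean of the dermal fibroblast list, all in log2(intensity + 16), 1 point per array with its replicate number, for 6 h (circles), 24 h (triangles) and vehicle (squares). Axin2 is highest in 24 h replicate 4 (8.18) and 6 h replicate 1 (7.96), the arrays with the highest keratinocyte means, and Sfrp2 leaves a gap between 7.03 and 8.40.

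Sfrp1 lay at 8.84, 8.15, 8.32 and 7.48 at 6 h, at 8.29, 7.85, 8.34 and 9.04 at 24 h, and at 9.61, 8.13 and 8.04 in vehicle skin. Vehicle replicate 1 was the highest array, and the other arrays of the 3 groups shared 1 range. The differences from vehicle were -0.39 ± 0.43 at 6 h and -0.21 ± 0.43 at 24 h (adjusted p = 0.67 and 0.91), and without vehicle replicate 1 they were 0.11 and 0.30. Over its 5 probe sets the difference at 6 h ran from -0.80 to 0.29, with both signs.

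Dkk3 lay at 8.08, 7.20, 7.39 and 7.54 at 6 h, at 6.998, 7.29, 7.38 and 7.64 at 24 h, and at 6.69, 6.98 and 7.49 in vehicle skin. All arrays at 6 h lay above 2 of the 3 vehicle arrays, and vehicle replicate 4 lay inside their range. The differences were 0.50 ± 0.26 at 6 h and 0.28 ± 0.26 at 24 h (adjusted p = 0.37 and 0.80). Without vehicle replicate 1 they were 0.32 and 0.096, and without vehicle replicate 4 they were 0.72 and 0.49, while without 6 h replicate 1 the difference at 6 h was 0.33 and without 24 h replicate 4 that at 24 h was 0.17. The second probe set gave 0.47 and 0.32. In the intensities as deposited the sign was turned, with -0.23 at 6 h and -0.34 at 24 h, both above the median over all genes.

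Wif1 lay at 6.73, 6.27, 5.81 and 5.74 at 6 h, at 6.17, 6.64, 6.58 and 7.45 at 24 h, and at 6.33, 6.36 and 6.16 in vehicle skin. The vehicle arrays were close together, the 6 h arrays reached above and below them, and the 24 h arrays reached above them, with replicate 4 the highest. The difference from vehicle was -0.15 ± 0.31 at 6 h and 0.43 ± 0.31 at 24 h (adjusted p = 0.84 and 0.74). Without 24 h replicate 4 the difference at 24 h was 0.18, and leaving out 1 array the difference at 6 h ran between -0.35 (without 6 h replicate 1) and -0.015 (without 6 h replicate 5). Between the times it was higher at 24 h by 0.58 ± 0.29 (adjusted p = 0.58), and by 0.33 without 24 h replicate 4.

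Ctnnb1 encodes beta-catenin, which the pathway controls through the stability of the protein rather than through its transcript. It lay at 12.94, 12.64, 12.38 and 12.37 at 6 h, at 12.22, 12.45, 12.21 and 12.53 at 24 h, and at 12.10, 12.38 and 12.56 in vehicle skin. The groups overlapped and each spanned less than 1 unit. The differences from vehicle were 0.24 ± 0.19 at 6 h and 0.01 ± 0.19 at 24 h (adjusted p = 0.57 and 0.99). The difference at 6 h was 0.11 without vehicle replicate 1 or without 6 h replicate 1, and at 24 h leaving out 1 array gave differences between -0.12 (without vehicle replicate 1) and 0.11 (without vehicle replicate 4). The other 2 probe sets gave -0.14 and -0.44 at 6 h, and 1430533_a_at, with the second of these values, was at 4.86 in 6 h replicate 5, the array with the lowest actin ratio, and 6.73 or more in all others.

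Lef1, which carries beta-catenin to DNA and is known from the hair matrix and its precursors, has 4 RefSeq start windows, the first of which is shown because it holds the core CTTTG of the Tcf and Lef binding sequence, in capitals (GRCm38.p6, chr3:131110047-131110346, + strand).
Lef1: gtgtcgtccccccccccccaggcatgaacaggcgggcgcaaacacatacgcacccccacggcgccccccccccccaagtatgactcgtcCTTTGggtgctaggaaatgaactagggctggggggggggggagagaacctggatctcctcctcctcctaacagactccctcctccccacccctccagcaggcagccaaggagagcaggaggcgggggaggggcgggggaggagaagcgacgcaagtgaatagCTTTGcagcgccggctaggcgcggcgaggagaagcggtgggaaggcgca

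The fuller form CTTTGAT was in none of the 10 start windows available for 6 of the Wnt pathway genes, against 3.73% of 32851 mouse promoters of the same length. CTTTG on either strand, a shorter form contained in the fuller one and added after the data were seen, was in 6 of the 10 windows, against 53.9% of all promoters. Of these 6, 4 are Lef1 windows, and the first 2 of them overlap over 274 bases and hold the same sites, so that by gene it was in 3 of 6 (Wnt10b, Wif1 and Lef1). TATAAA was in 3 of the 10 windows, 1 each for Wif1, Ctnnb1 and Lef1, against 13.6%. A match in letters is a description of the sequence and not of binding.

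Lef1 itself lay at 6.15, 5.09, 5.42 and 5.59 at 6 h, at 4.88, 5.96, 5.51 and 6.10 at 24 h, and at 5.56, 5.39 and 5.79 in vehicle skin. Both dosed groups reached above and below all vehicle arrays. The differences from vehicle were -0.02 ± 0.31 at 6 h and 0.03 ± 0.31 at 24 h, with 95% intervals of -0.70 to 0.67 and -0.66 to 0.72 and adjusted p = 0.98 and 0.99. The second Lef1 probe set did not pass the filter.

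Axin2, a scaffold of the destruction complex, is a widely used target of beta-catenin and so serves as a reporter of pathway activity. A RefSeq start window of Axin2 is shown for that role (GRCm38.p6, chr11:108920099-108920398, + strand) and holds neither CTTTGAT nor CTTTG, so no part is in capitals. The RefSeq gene begins upstream of this window, at 108917828, and no window was searched there.
Axin2: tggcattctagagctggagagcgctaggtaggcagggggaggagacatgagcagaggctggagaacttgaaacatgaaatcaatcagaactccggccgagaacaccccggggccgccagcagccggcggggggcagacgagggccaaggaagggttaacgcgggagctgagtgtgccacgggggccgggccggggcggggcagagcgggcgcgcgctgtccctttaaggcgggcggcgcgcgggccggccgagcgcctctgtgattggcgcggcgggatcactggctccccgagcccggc

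This Axin2 window was 70% G and C, against a median of 52.7% over all promoters, with 31 CG dinucleotides against a median of 7. Axin2 lay at 7.96, 7.48, 6.94 and 6.03 at 6 h, at 7.10, 6.56, 7.11 and 8.18 at 24 h, and at 6.80, 7.27 and 7.38 in vehicle skin. The vehicle arrays lay in the middle of a wider range in both dosed groups. The differences from vehicle were -0.05 ± 0.45 at 6 h and 0.09 ± 0.45 at 24 h (95% intervals -1.04 to 0.94 and -0.91 to 1.08, adjusted p = 0.97 at both times). These intervals reach about 1 unit in either direction, and the sign at 6 h turned with the arrays used, at -0.34 without 6 h replicate 1 and 0.31 without 6 h replicate 5. The second Axin2 probe set did not pass the filter.

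Axin2 was high where basal keratinocyte markers were high. Of the 10 basal keratinocyte genes measured, Itgb4 was on the floor in vehicle replicate 4 and 6 h replicate 5. The mean of the 10 genes was 10.92, 10.66, 9.60 and 9.45 at 6 h, 9.995, 9.79, 9.64 and 11.67 at 24 h, and 9.28, 9.93 and 9.81 in vehicle skin. Over the 11 arrays the correlation with Axin2 was r = 0.85 (permutation p = 0.00049, adjusted p = 0.022 over 45 relations of 9 genes with 5 cell type lists) and rho = 0.85 (permutation p = 0.0015, adjusted p = 0.065). Within groups, after group means were removed, r was 0.90. Without the 2 arrays farthest from the median list mean, 6 h replicate 1 and 24 h replicate 4, r was 0.64 (permutation p = 0.073) and rho was 0.73 (permutation p = 0.033), both unadjusted and over 9 arrays, so Pearson's r no longer passed 0.05 and Spearman's rho did. With median scaling in place of quantile normalization, r was 0.69 (adjusted p = 0.18). At 6 h, Axin2 and the list mean both ranked in the order of the actin ratio, 0.425, 0.377, 0.284 and 0.0725. At 24 h neither did, and in vehicle skin only the list mean did. The part of RNA quality in this correlation was not tested. None of the other 44 relations had an adjusted p under 0.05, and neither did any of the 36 pairs of the 9 genes with each other, of which Dkk3 and Ctnnb1 had the smallest p (r = 0.78, permutation p = 0.0058, adjusted p = 0.21, rho = 0.52, and r = 0.31 without the 2 arrays farthest from the median). The suprabasal keratinocyte list, also among the 5, gave r = 0.65 (permutation p = 0.028, adjusted p = 0.18) and rho = 0.75 with Axin2, and r = 0.85 within groups. Lists outside the 5 were not correlated with the genes. One of them, hair follicle stem cell and outer root sheath, was also highest in 24 h replicate 4 (9.76) and 6 h replicate 1 (9.67).

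Levels of hair follicle genes differed widely within groups. The mean of the 17 hair matrix and shaft genes was 5.03, 5.23, 5.08 and 6.17 at 6 h, 5.15, 8.83, 5.21 and 5.40 at 24 h, and 5.58, 5.43 and 8.46 in vehicle skin. Thus 24 h replicate 2 and vehicle replicate 4 stood far above the other 9 arrays. Lef1, at 5.96 and 5.79 in these arrays, was within the range of the others.

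The other genes of the pathway were read from the same fit, by role. Of 106 further genes listed, 103 had a probe set of their own and 90 passed the filter, and 0 of the 90 had an adjusted p under 0.05 in any of the 3 comparisons. At an unadjusted p under 0.05, 8 were higher and 6 lower at 6 h, against 8.02% and 8.05% of all genes. At 24 h, 3 were higher and 3 lower, against 3.16% and 4.47% of all genes. For 24 h minus 6 h, 2 were higher and 7 lower, against 3.76% and 5.51%. Groups free of overlap were found for 9 higher and 8 lower genes at 6 h, 1 higher and 4 lower at 24 h, and 0 higher and 1 lower between the times, beside the shares of all genes given above. The median difference of the 90 was 0.03 at 6 h, 0.02 at 24 h and -0.03 between the times. In the intensities as deposited, the differences at 6 h of Lgr4, Ryk and Hmgxb4, given here as positive, were -0.06, -0.36 and -0.44. Each lay above the median over all genes in the deposited intensities, -0.68.

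Receptors gave the smallest p-values at 6 h. There, 10 of the 15 receptor genes tested lay above vehicle, and their median difference was 0.21. Fzd3, a Frizzled receptor, lay at 8.15, 7.97, 7.76 and 8.15 at 6 h, at 6.67, 7.79, 7.10 and 7.70 at 24 h, and at 6.49, 6.94 and 6.99 in vehicle skin. All arrays at 6 h exceeded all vehicle arrays, by 1.20 ± 0.27 on average (adjusted p = 0.14), while at 24 h the groups overlapped at a difference of 0.51 ± 0.27 (adjusted p = 0.67). Fzd4, a Frizzled receptor known from blood vessels, lay at 8.31, 8.37, 7.94 and 8.11 at 6 h, at 8.67, 7.85, 8.46 and 8.65 at 24 h, and at 9.10, 9.28 and 8.84 in vehicle skin. Every dosed array was below every vehicle array, with differences of -0.89 ± 0.22 at 6 h and -0.67 ± 0.22 at 24 h (adjusted p = 0.15 and 0.55). The mean of the 10 endothelial markers ran between 6.81 and 7.09 at 6 h, between 6.41 and 7.502 at 24 h, and between 7.30 and 7.999 in vehicle skin, and its part in the Fzd4 difference was not tested. Ryk, a Wnt receptor of the receptor tyrosine kinase type, was higher than vehicle at 6 h by 0.45 ± 0.17 and Lrp5, the co-receptor, was lower at 24 h by a difference of -0.67 ± 0.24 (adjusted p = 0.24 and 0.57). Lrp5 was dim, at 4.41, 4.36, 4.61 and 5.33 at 24 h and at 5.46, 5.22 and 5.38 in vehicle skin. Only the 3 vehicle arrays and 24 h replicate 4 lay above the filter value of 5.21. Lrp5 thus passed the filter through the group where it was high.

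Among ligands and their secretion, 13 of 18 genes were tested at a median of -0.02 at 6 h. Wnt2 lay at 4.67, 5.42, 4.85 and 5.98 at 6 h, at 7.49, 5.59, 7.26 and 5.25 at 24 h, and at 6.10, 7.30 and 7.29 in vehicle skin. All arrays at 6 h were below all vehicle arrays (difference -1.67 ± 0.57, adjusted p = 0.22), and at 24 h replicates 1 and 3 were high and replicates 2 and 4 low, the same split as for Sfrp2. Porcn, the enzyme that attaches the lipid to Wnt proteins, differed from vehicle at 6 h by -1.08 ± 0.38 (adjusted p = 0.23). Leaving out 1 array, the Porcn difference ran between -1.28 (without 6 h replicate 2) and -0.75 (without 6 h replicate 5, the array with the lowest actin ratio). Wnt7a, an epidermal ligand, differed at 24 h by 0.62 ± 0.28 (adjusted p = 0.65).

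R-spondins raise the number of Frizzled receptors on the cell, and the list of R-spondins and their receptors also held Znrf3 and Rnf43, which lower it. The list had 6 of 8 tested genes above vehicle at 6 h, with Lgr4 at 0.72 ± 0.29 and Lgr6 at 1.02 ± 0.48 (adjusted p = 0.27 and 0.33). Znrf3 and Rnf43 were among these 6, at 0.45 and 0.19. At 6 h the groups did not overlap for Lgr4, and they overlapped for Lgr6. Lgr6 was highest in 24 h replicate 4 (9.58) and 6 h replicate 1 (9.14), the arrays with the highest basal keratinocyte list means. The part of keratinocyte content in the Lgr6 difference was not tested. Of the other inhibitors, 5 of 11 were above vehicle at 6 h at a median of -0.03, and Dkkl1, a relative of the Dickkopf proteins, differed by -0.98 ± 0.35 (adjusted p = 0.23). Leaving out 1 array, the Dkkl1 difference ran between -1.13 (without 6 h replicate 1) and -0.75 (without 6 h replicate 5, the array with the lowest actin ratio). Of the transducers and destruction complex genes, 12 of 18 were above vehicle at 6 h at a median of 0.09, and Btrc, which recognises marked beta-catenin, differed by -0.87 ± 0.37 (adjusted p = 0.29). For Btrc the difference ran between -1.003 (without 6 h replicate 2) and -0.66 (without 6 h replicate 5).

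Of the Tcf and Lef factors and their partners, 7 of 13 lay above vehicle at 6 h. Hmgxb4, a nuclear HMG box protein, lay at 7.47, 7.76, 7.54 and 7.76 at 6 h, at 7.08, 7.18, 7.07 and 7.24 at 24 h, and at 7.28, 7.22 and 7.38 in vehicle skin. The 6 h arrays were above all others, by 0.34 ± 0.15 over vehicle, and the 24 h minus 6 h difference was -0.49 ± 0.14 (adjusted p = 0.29 for each). Among 18 tested genes reported as targets of beta-catenin, the median difference was -0.04 at 6 h and -0.02 at 24 h, with 8 and 9 above vehicle. At an unadjusted p under 0.05, none of these targets passed at 6 h, and at 24 h only Ppard did, a nuclear receptor, at -0.80 ± 0.26 (adjusted p = 0.53).

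**Figure D4:**
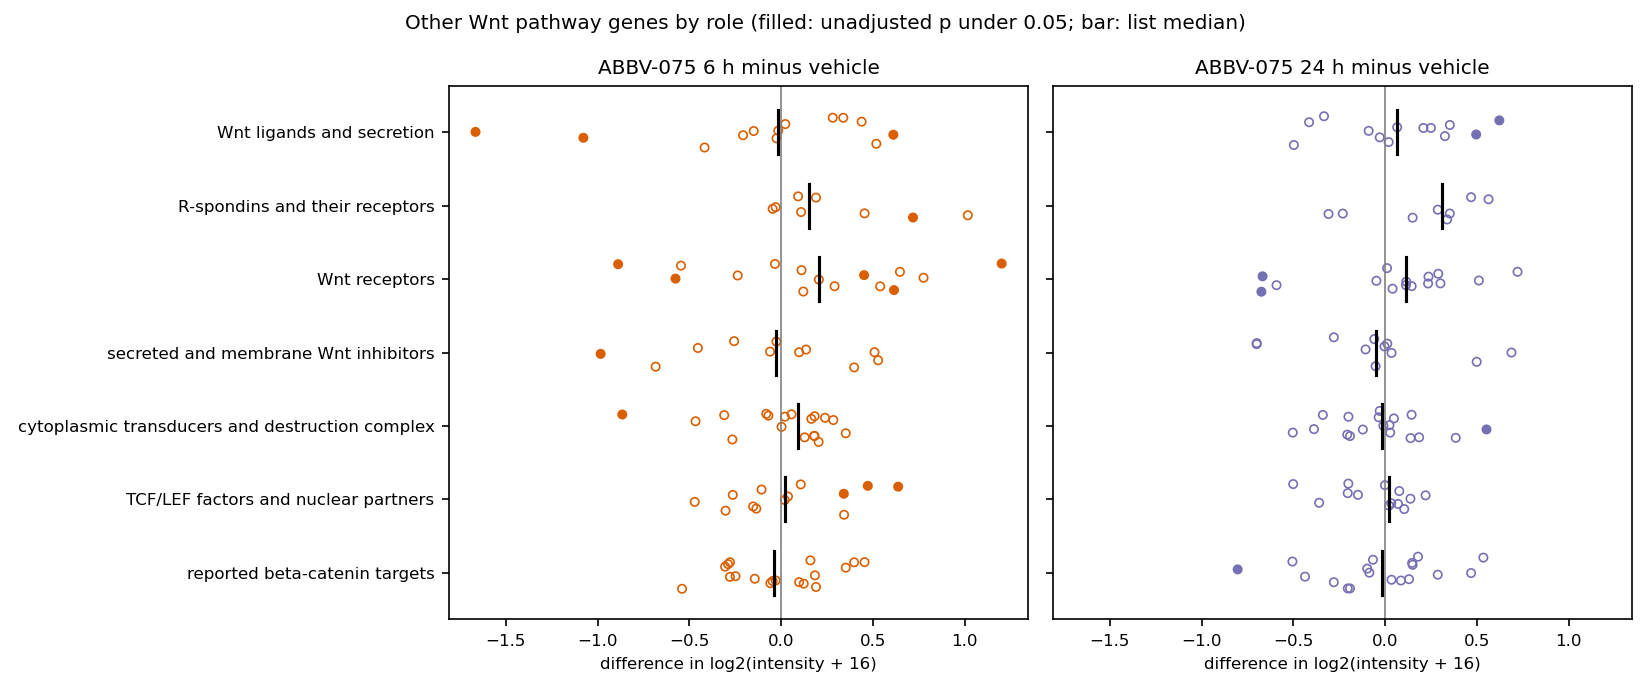
Difference from vehicle in log2(intensity + 16) of the other Wnt pathway genes tested, by role, at 6 h (left) and 24 h (right), 1 point per gene, filled where the unadjusted p was under 0.05, with the list median as a black bar. All list medians lie within 0.4 of 0, and the receptor Fzd3 at 6 h lies farthest right (1.20) and the ligand Wnt2 farthest left (-1.67).

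For each of the 9 genes, the genes most like it over the 11 arrays were sought among the 13710 by Pearson's r, as a description that shares libraries and cell content. They were Kcnq5 (0.92) and Lmod3 (0.91) for Wnt10a, and Josd2 (0.90) and Mgme1 (0.88) for Wnt5a. Among the antagonists they were Ube2c (0.93) and Stk11ip (0.91) for Sfrp1, Car8 (0.96) and Ppp1r9a (0.94) for Sfrp2, Hmcn1 (0.91) and Hoxb3 (0.87) for Dkk3, and Slc16a9 (0.95) and Samm50 (0.92) for Wif1. They were Krt79 (0.96) and Lratd1 (0.95) for Ctnnb1, Hnrnpa0 (0.86) and Klf11 (0.86) for Lef1, and Rprd1b (0.98) and Nfix (0.97) for Axin2.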

How the data were processed

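Per the labels' protocols, total skin RNA was extracted with Qiazol and RNeasy, amplified with an Affymetrix 3' IVT Plus kit and labelled with biotin. The amount of total RNA given is 200 ng per sample. The authors deposited 1 linear intensity per probe set and array, of which 12.9% to 16.6% per array lay below 0. The sources used here do not name the software or scaling behind them. The intensities were quantile-normalized, set to at least 0 and taken as log2(intensity + 16). Probe sets were named through the platform annotation: 34958 had 1 gene, 932 several and 9211 none. A gene was kept where its brightest probe set lay above the 40th percentile on at least 3 arrays.

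Differences were tested two-sided in R 4.3.3 with lmFit and eBayes of limma 3.58.1, on 11 arrays without covariates, using Benjamini-Hochberg adjustment over 13710 genes at a threshold of 0.05. A single probe set's p comes from a fit over the kept probe sets. Correlations over arrays used 100000 permutations (Python 3.11.15, numpy 2.4.6). Promoter sequences are windows at RefSeq starts (GRCm38.p6), which were available for 6 of the 10 genes. Named beside the 10 genes are up to 3 genes of smallest p per pathway list and comparison. The 10 genes, the lists and the normalization were chosen with earlier results of these data known.

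Same-numbered vehicle and 24 h arrays had correlations of their deviations of 0.25, 0.13 and 0.21, all over the criterion of 0.1 set for pairs. Differently numbered arrays of these groups ran from -0.35 to 0.21, some of them also over 0.1, so the criterion cannot show that the numbers are pairs. For 6 h and vehicle, same-numbered arrays gave -0.12 and -0.07. The main fit used no pairing, and the replicate number entered only as a block among the alternatives. At most 3 intensities were identical between 2 arrays of a group. The number of arrays limits the precision. Alternatives covered normalization, pseudocount, filter, probe set choice, array weights, variance model, samples in the fit, replicate block, RNA quality and each array left out.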

Additional observations from a re-analysis of the deposited data

How the results depend on the processing

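The 9 Wnt pathway genes tested had no call under 23 of the 25 alternatives, which include the 11 fits leaving out an array, at either time or between the times. With no normalization between arrays 1 was called at 6 h (Sfrp2 -2.58, adjusted p = 0.036), and with limma's array weights 2 were (Wnt5a -0.59, adjusted p = 0.028, and Sfrp2 -2.64, adjusted p = 0.0088). Of the other pathway genes, 3 were called at 6 h with no normalization (Wnt2, Fzd4 and Dkkl1), and with array weights 12 were called at 6 h, 1 at 24 h (Lrp5) and 3 for 24 h minus 6 h (Fzd3, Hmgxb4 and Wnt2). Over all genes, 859 were called at 6 h and 6 at 24 h with no normalization, and 2498, 59 and 423 in the 3 comparisons with array weights. Without a filter there were 18 at 6 h and 1 at 24 h, with the mean of probe sets 7 at 6 h and 2 between the times, and leaving out 1 array up to 23, 1 and 7. With only the 2 groups compared in the fit there were 1 at 6 h and 2 at 24 h, and with the actin ratio as a covariate 1 between the times. With no normalization, 10 of the 36 pairs of genes were correlated at an adjusted p under 0.05, and 0 in the main setting. The cause of these differences was not tested.

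No difference whose sign turned was called in the main setting, but Wnt6, Lgr4, Ryk and Hmgxb4 at 6 h, negative with no normalization, were called higher with array weights (adjusted p = 0.018, 0.026, 0.022 and 0.023). With no normalization, the turned signs were Wnt10a -0.12, Dkk3 -0.23, Ctnnb1 -0.27, Wnt6 -0.028, Lgr4 -0.058, Ryk -0.36, Tle1 -0.16, Cdc73 -0.30 and Hmgxb4 -0.44 at 6 h and Wnt10a -0.0047, Dkk3 -0.34, Wif1 -0.078, Ctnnb1 -0.50, Lef1 -0.27 and Axin2 -0.55 at 24 h. All of these lay above the median over all genes with no normalization, which was -0.68 at 6 h and -0.62 at 24 h. Under median scaling, the turned signs were Sfrp1 0.10 and Lef1 0.013 at 6 h and Sfrp1 0.022, Ctnnb1 -0.060 and Axin2 -0.16 at 24 h. With cyclic loess, the turned signs were Lef1 0.023 at 6 h and Lef1 -0.014 at 24 h. Under a pseudocount of 64, the turned sign was Lef1 0.0024 at 6 h. With the mean of all probe sets, the turned signs were Ctnnb1 -0.12, Axin2 0.16 and Ryk -0.071 at 6 h and Wnt5a 0.037 and Nkd2 -0.063 at 24 h. Under array weights, the turned signs were Sfrp1 0.015 and Axin2 0.16 at 6 h and Wnt10a -0.62, Sfrp1 0.047, Ctnnb1 -0.13, Lef1 -0.21 and Axin2 -0.15 at 24 h. With the replicate number as a block, the turned signs were Sfrp1 0.030, Wif1 0.12, Lef1 0.14 and Axin2 0.67 at 6 h. Under the actin ratio as a covariate, the turned signs were Sfrp1 0.059, Wif1 0.086 and Axin2 0.94 at 6 h and Sfrp1 0.038 and Lef1 -0.10 at 24 h. With the 3 arrays of actin ratio under 0.3 left out, the turned signs were Wif1 0.22, Lef1 0.043 and Axin2 0.57 at 6 h and Ctnnb1 -0.027 and Lef1 -0.087 at 24 h. Leaving out 1 array, the differences whose sign turned ran at 6 h between -0.40 and 0.74 for Wnt10a, -0.67 and 0.11 for Sfrp1, -0.21 and 0.14 for Lef1 and -0.34 and 0.31 for Axin2. At 24 h they ran between -0.42 and 0.72 for Wnt10a, -0.20 and 0.10 for Wnt5a, -0.49 and 0.30 for Sfrp1, -0.12 and 0.11 for Ctnnb1, -0.13 and 0.27 for Lef1 and -0.23 and 0.31 for Axin2. The replicate block changed no call on the 9 genes (0 in each comparison) and gave 1 call among all genes at 6 h. Signal limits Wnt10b, the second probe sets of Lef1 and Axin2, and Wnt10a, whose vehicle replicate 1 lies on the floor. Low signal also limits the main Lef1 probe set, which lay between 4.88 and 6.15 beside a filter value of 5.21. The same holds for Lrp5, which passed the filter through the vehicle arrays. The intervals of Axin2 reach about 1 unit on either side.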
